A study of Mus musculus with 4 samples.

Results

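The clustered histone genes encode the bulk of the histones that package newly copied DNA. H2A, H2B, H3 and H4 form the core of the nucleosome and H1 binds the linker DNA beside it. Most of these genes lie in tight clusters, are transcribed during S phase, and give messages that end in a stem-loop in place of a poly(A) tail. Npat, a coactivator that works at histone locus bodies, Hinfp, an activator of H4 genes, and Slbp, which binds the stem-loop, act on these genes or their messages. A few members are used in the germline or outside S phase, so the family holds both broadly active and tissue-restricted genes.

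The members were the protein-coding genes whose symbol marks them as Hist1h to Hist4h genes or, in newer naming, as H1f, H2ac, H2bc, H3c or H4c followed by a digit. This gave 67 of the 21887 protein-coding genes in the gene table, with 10 of the H1 class, 17 H2A, 16 H2B, 12 H3 and 12 H4. A gene was counted as having a peak where a deposited ATAC-seq peak lay within 1 kb of either gene end. ATAC-seq marks open chromatin by the insertion of a transposase, and a peak is a stretch with more insertions than its surroundings. The 4 libraries came from MPP3 cells, a multipotent blood progenitor population biased towards granulocytes and monocytes, taken from bone marrow of WT-iMOS mice at 3 months of age. The labels name the genotypes WTiMOS_T1 and WTiMOS_T2, each with 2 libraries, and do not say what T1 or T2 stands for, what the iMOS allele carries, or whether the replicates are separate animals. The series concerns the role of Bcl11a, a zinc-finger transcription factor, in MPP3 cells.

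The lists held 58454 and 54045 peaks in T1 replicates 1 and 2 and 66764 and 62704 in T2 replicates 1 and 2. They carry no read counts, so depth is unknown and no count model could be fitted, and no other test was made, since with 2 libraries a group the smallest exact two-sided p is 0.333. Of 11 markers of multipotent and myeloid progenitors, 9 had a gene-end peak in all 4 lists, Ly6a had none in any list, and Mpo had one in both T2 lists only (−log10 q of 24.5 and 19.3). Gene-end peaks in all 4 lists also stood at 1 of 5 B cell, 3 of 5 T cell, 3 of 5 erythroid, 2 of 4 endothelial, 4 of 4 stromal and 2 of 4 neural or epithelial markers. Ms4a1, Cd8a, Slc4a1, Alas2 and Cdh5, which mark B, T, erythroid and endothelial cells, had none in any list. Neurod1, a neural marker, also had a peak in both T2 lists only, a weak one (−log10 q of 4.80 and 4.76). Pecam1, an endothelial marker, stood at percentiles of 58.5 and 49.8 in T1 and 85.6 and 80.6 in T2. The other endothelial marker with a peak in all 4 lists did not separate the groups in percentile. Of the 9 progenitor markers, 5 were higher in both T2 lists and 0 in both T1 lists. The shares over all genes with a peak in all 4 lists were 34.1% and 16.3%. The part of other cell types in the histone values was not tested, and in bulk libraries a change in cell types and a change in accessibility within cells cannot be told apart. The strength of a peak is reported as the −log10 q that the authors deposited, and as the percentile of that value within its list, where 100 is the strongest peak. Lists of unequal length shift percentiles, so ranks alone show no change between groups.

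Promoter sequences set the scene for the peaks, and 9 are printed because the results below turn on these genes. Each is the 250 bases before the annotated start, 5′ to 3′ along the gene, from RefSeq on GRCm38.p6, where 62 of the 67 members matched an entry. In the first 7, capitals mark 4 motifs searched on both strands: TATAAA (the TATA box), CCAAT (read as ATTGG on the other strand), ATTTGCAT (the octamer motif, which POU factors bind) and AAACACA (the H1 box). H2bc3 and H3c3 share a region where the T1 and T2 peaks differed in extent. H4c4 and H1f4 are S-phase genes with strong peaks, H1f10 is a linker histone gene used outside S phase, H2ac10 had the one region found in T2 only, and H2bc1, the testis H2B gene, had no peak.
H2bc3 (chr13:23746484-23746733, plus strand): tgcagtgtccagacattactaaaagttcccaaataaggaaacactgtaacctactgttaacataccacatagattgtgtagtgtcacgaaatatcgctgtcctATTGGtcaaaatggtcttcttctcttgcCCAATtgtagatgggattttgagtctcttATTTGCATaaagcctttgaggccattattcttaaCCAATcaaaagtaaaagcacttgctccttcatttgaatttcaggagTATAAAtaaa
H3c3 (chr13:23745522-23745771, minus strand): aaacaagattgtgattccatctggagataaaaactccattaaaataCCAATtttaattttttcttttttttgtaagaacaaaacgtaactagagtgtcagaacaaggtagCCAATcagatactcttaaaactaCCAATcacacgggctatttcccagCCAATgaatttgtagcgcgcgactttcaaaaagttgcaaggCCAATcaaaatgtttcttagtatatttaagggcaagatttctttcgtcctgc
H4c4 (chr13:23581318-23581567, plus strand): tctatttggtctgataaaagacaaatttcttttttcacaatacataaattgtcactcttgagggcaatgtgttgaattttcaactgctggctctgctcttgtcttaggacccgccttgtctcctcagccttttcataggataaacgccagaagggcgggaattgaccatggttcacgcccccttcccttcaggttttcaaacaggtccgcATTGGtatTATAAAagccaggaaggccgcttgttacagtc
H1f4 (chr13:23622559-23622808, minus strand): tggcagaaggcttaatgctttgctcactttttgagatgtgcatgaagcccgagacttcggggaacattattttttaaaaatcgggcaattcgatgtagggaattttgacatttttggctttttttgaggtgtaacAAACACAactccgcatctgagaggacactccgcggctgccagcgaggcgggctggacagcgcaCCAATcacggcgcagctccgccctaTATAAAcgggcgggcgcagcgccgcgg
H1f10 (chr6:87981483-87981732, minus strand): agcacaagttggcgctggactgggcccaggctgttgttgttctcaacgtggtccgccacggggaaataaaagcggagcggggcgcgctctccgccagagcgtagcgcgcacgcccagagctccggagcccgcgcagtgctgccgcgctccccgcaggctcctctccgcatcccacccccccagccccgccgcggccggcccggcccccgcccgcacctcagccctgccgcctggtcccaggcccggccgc
H2ac10 (chr13:23533625-23533874, plus strand): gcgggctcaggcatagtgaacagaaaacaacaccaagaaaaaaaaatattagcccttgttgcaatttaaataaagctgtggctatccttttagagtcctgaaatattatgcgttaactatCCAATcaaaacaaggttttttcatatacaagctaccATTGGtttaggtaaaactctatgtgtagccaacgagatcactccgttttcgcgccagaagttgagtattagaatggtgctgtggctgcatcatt
H2bc1 (chr13:23934157-23934406, minus strand): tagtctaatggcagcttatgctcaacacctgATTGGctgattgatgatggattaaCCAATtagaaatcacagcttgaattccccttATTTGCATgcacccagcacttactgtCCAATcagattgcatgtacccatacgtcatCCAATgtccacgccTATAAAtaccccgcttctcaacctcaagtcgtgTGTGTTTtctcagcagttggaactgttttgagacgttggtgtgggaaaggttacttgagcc

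H2ac18 and H2ac19 encode H2A from a duplicated segment on chromosome 3. In the next pair, capitals mark the printed bases of the longest run that both promoter windows share exactly, which goes on past the start in both genes and leaves 209 capitals in H2ac18 and 169 in H2ac19.
H2ac18 (chr3:96245247-96245496, plus strand): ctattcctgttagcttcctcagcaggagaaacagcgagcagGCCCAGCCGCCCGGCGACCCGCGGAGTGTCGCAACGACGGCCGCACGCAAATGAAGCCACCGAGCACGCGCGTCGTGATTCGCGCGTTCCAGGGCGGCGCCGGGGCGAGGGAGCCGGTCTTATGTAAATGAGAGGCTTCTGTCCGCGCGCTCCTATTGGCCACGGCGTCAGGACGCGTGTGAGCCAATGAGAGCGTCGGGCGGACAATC
H2ac19 (chr3:96240375-96240624, minus strand): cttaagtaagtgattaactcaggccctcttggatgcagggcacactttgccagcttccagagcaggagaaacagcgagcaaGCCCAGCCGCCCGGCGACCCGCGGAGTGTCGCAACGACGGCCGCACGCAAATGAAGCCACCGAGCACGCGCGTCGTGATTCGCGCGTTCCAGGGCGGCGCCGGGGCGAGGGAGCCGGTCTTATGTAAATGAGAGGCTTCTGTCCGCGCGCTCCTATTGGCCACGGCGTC

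Clustered histone promoters were rich in these motifs. A CCAAT box was found in 49 of 62 member promoters (79.0%), against 33.8% of all 32851 promoter windows of the same length, and at least 2 were found in 41 (66.1%) against 10.1%. The H3c3 promoter printed above holds 5 CCAAT boxes on the sense strand, the first base of the nearest one 52 bases before the start. At least 2 boxes stood in 16 of 17 H2A, 14 of 14 H2B and 8 of 10 H3 promoters, but in 1 of 11 H4 and 2 of 10 H1 promoters. TATAAA was present in 28 member promoters (45.2%) against 12.4% of all windows, and in 11 of the 62 it lay on the sense strand 25 to 40 bases before the start, as in H4c4 and H1f4, against 627 of the 32851. The octamer motif was found in 13 (21.0%) against 1.60%, in 7 H2B and 6 H2A promoters and in 0 of the H1, H3 and H4 promoters. The H1 box was found in 5 of 10 H1 promoters, against 6.25% of all windows. No motif matches overlapped within a member promoter. Facing H2A and H2B genes share many of the same bases, so their matches are not independent. The H1f10 promoter held none of the 4 motifs. A match is only a match of letters and says nothing of which factor binds.

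**Figure D1:**
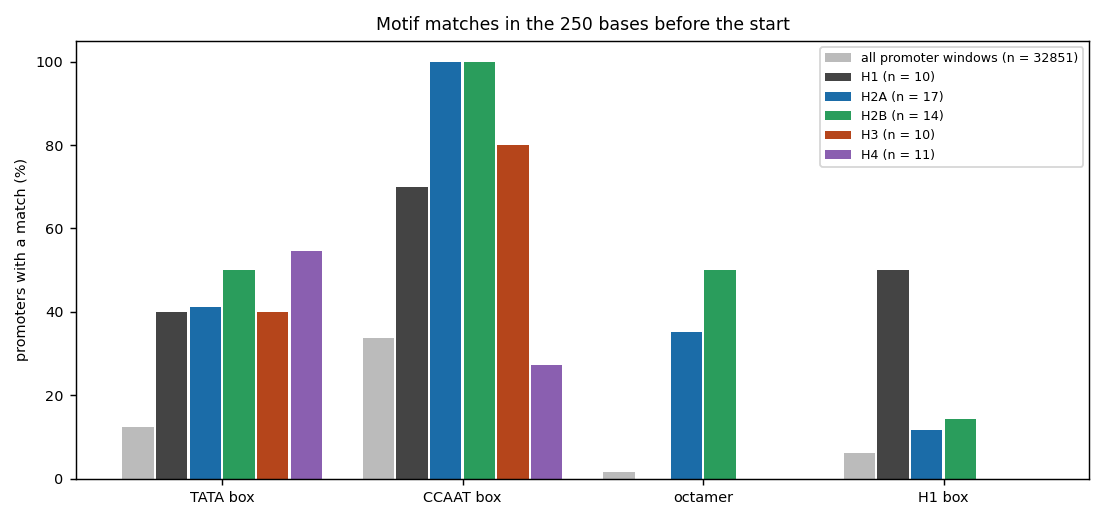
Share of promoters with at least 1 match of each motif in the 250 bases before the start, in percent, for all promoter windows (grey) and for the 5 histone classes (colours, with the number of promoters in each). CCAAT boxes are in 100% of H2A and H2B promoters, the octamer motif appears only in those 2 classes, and the H1 box reaches 50% in H1.

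Most clustered histone genes had a peak in both groups. Members with a gene-end peak numbered 56 in T1 replicate 1, 58 in T1 replicate 2, 58 in T2 replicate 1 and 57 in T2 replicate 2, that is 57.0 ± 1.41 in T1 and 57.5 ± 0.707 in T2 (SD, n = 2 per group). The difference of 0.500 genes is smaller than the spread between replicates. All 4 lists had a peak at 56 members (83.6%), where the share over all protein-coding genes was 59.7%. By class these were 7 of 10 H1, 13 of 17 H2A, 14 of 16 H2B, 11 of 12 H3 and 11 of 12 H4 genes. Many genes share a peak: the member peaks formed 47 regions when overlapping peaks were joined across lists, of which 25 served 1 member, 19 served a pair and 3 served 3 members.

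No member was gained or lost as a whole between the groups. The number with a peak in both T1 lists and neither T2 list was 0, against 0.160% of all protein-coding genes, and the number with the reverse was 0, against 1.17%. Of the 47 regions, 42 were in all 4 lists and 4 had other combinations. Region calls in T1 only numbered 0, where 0.514% of regions at any gene end were T1-only. Calls in T2 only numbered 1, where 3.03% of such regions were T2-only.

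The T2-only region lay over the promoter of H2ac10, an H2A gene, at chr13:23533692-23533995. Its −log10 q was 19.2 in T2 replicate 1 and 25.8 in T2 replicate 2 (percentiles 42.3 and 55.8), with no deposited peak in either T1 list. It overlapped the H2ac10 promoter printed above and the start of the gene at 23533875. H2ac10 still counted as present in all 4 lists, because the neighbouring H3c8 peak reaches within 1 kb of its end. That second peak, with its summit 1402 bp downstream of the H2ac10 start in every list, had −log10 q of 114 and 97.9 in T1 and 112 and 85.4 in T2. At its own start, then, H2ac10 had a peak of middling rank in T2, and none was listed in T1.

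The strongest histone peaks were at neighbouring H2A and H2B genes. The peak shared by H2ac6 and H2bc4 had −log10 q of 205 and 203 in T1 and 239 and 191 in T2, with percentiles of 97.8 to 99.1, the highest of any member on the mean over the lists. In T1 replicate 1 alone, H3c6 ranked above it. H2ac15 and H2bc15 had 191 and 163 in T1 and 187 and 148 in T2. H2ac12 and H2bc12 had 157 and 140 in T1 and 222 and 142 in T2. For all 3 pairs the T1 and T2 values overlapped. The gene table and promoter entries gave 9 facing H2A and H2B pairs with 164 to 281 bp between starts. In 7 of them both genes had the same peak as their strongest in all 4 lists, and H2bc23 with H2ac23 and H2bc1 with H2ac1 had none.

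Among the H3 genes, H3c6 led with −log10 q of 214 and 142 in T1 and 181 and 123 in T2. H3c7, which shares its best peak with H2bc9, had 183 and 113 in T1 and 154 and 145 in T2. That peak had its summit by the H2bc9 start, and a second peak, inside the H3c7 gene, was weaker in every list. H3c3 had 150 and 127 in T1 and 164 and 116 in T2. Those H3c3 values belong to a peak with its summit 1064 to 1150 bp before the H3c3 start, by H2bc3. The separate T2 peak at H3c3 itself had 46.4 and 41.8. None of these 3 H3 genes separated the groups in the −log10 q of the best peak.

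Among the H4 genes the strongest were H4c14, H4c3 and H4c4. H4c14 had −log10 q of 171 and 128 in T1 and 122 and 128 in T2. H4c3 had 141 and 118 in T1 and 141 and 128 in T2. H4c4 had 123 and 80.0 in T1 and 131 and 129 in T2, so its 2 T2 values lay above both T1 values. In the H1 class, which compacts chromatin between nucleosomes, H1f2 led with 158 and 134 in T1 and 133 and 134 in T2. H1f4, which shares a peak with H2bc6, had 118 and 73.0 in T1 and 108 and 95.7 in T2. H1f3 had 88.5 and 90.8 in T1 and 118 and 87.3 in T2. Within the H1 class the T1 and T2 values overlapped at H1f3 and H1f4, and at H1f2 the T1 values lay above the T2 values by less than the T1 replicates differed.

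**Figure D2:**
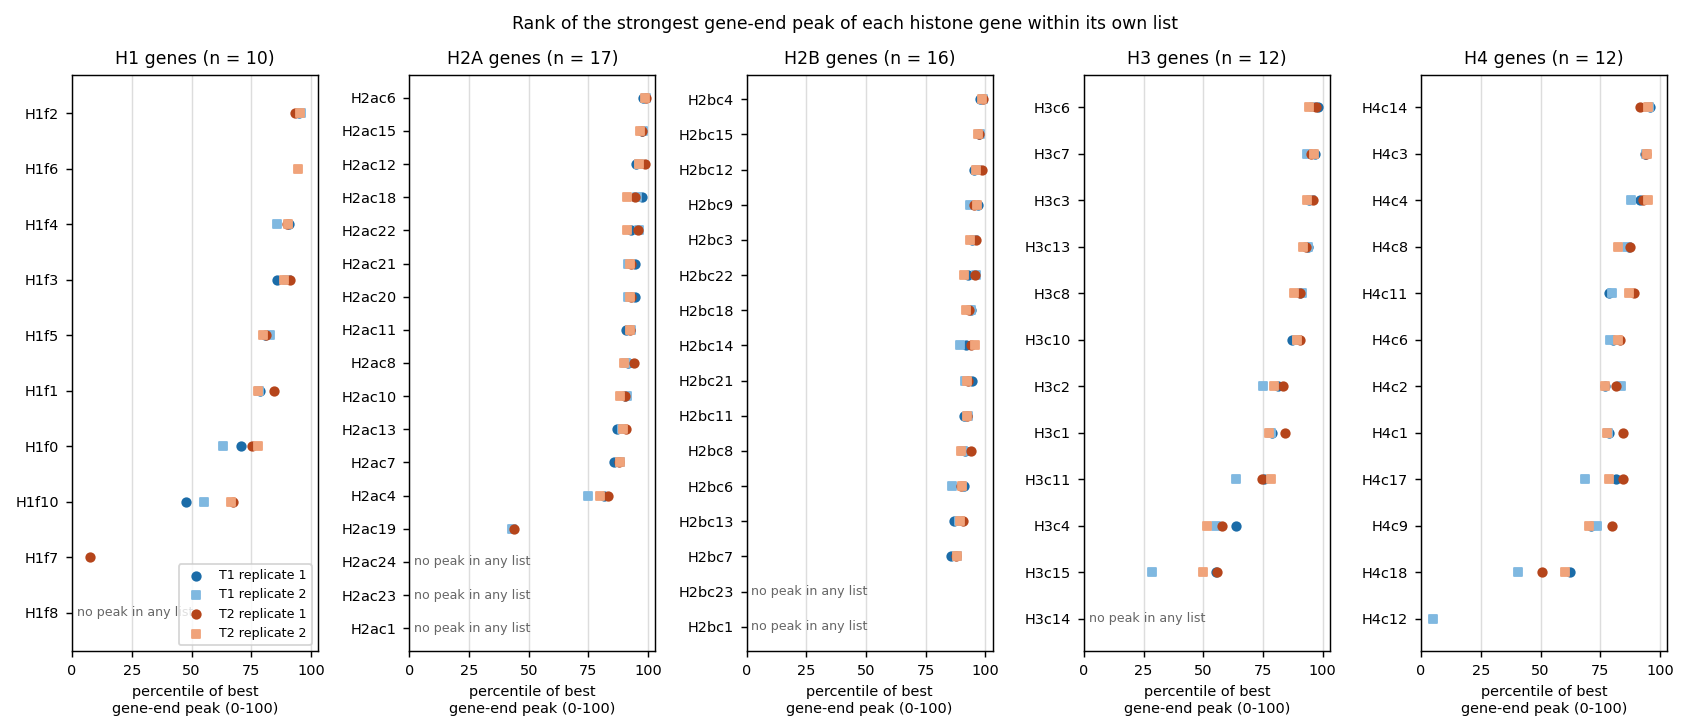
Percentile within its own list of the strongest gene-end peak of each histone gene (x axis, 0 to 100), by class, in T1 (blue) and T2 (orange) replicates 1 (circles) and 2 (squares). Most S-phase genes sit above 75 in every library. Of genes with a peak in all 4 lists, H1f10, H3c4, H3c15 and H4c18 stay below 75 throughout. H1f0, H3c11, H4c9, H4c17, H2ac4 and H3c2 fall below it in at least 1 list, and 7 genes have no peak in any list.

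The family ranked high in every library. The median percentile over the 56 members with a peak in all 4 lists was 90.9 and 90.4 in T1 and 91.5 and 90.02 in T2, beside 84.7, 82.8, 85.8 and 84.0 for all protein-coding genes chosen the same way. H2A and H2B stood highest, with class medians of the mean percentile of 92.7 and 92.9, followed by H3 at 89.0, H4 at 81.3 and H1 at 81.1. Genes of the DNA replication machinery, which are also used in S phase, had medians of 93.8 and 92.5 in T1 and 95.2 and 94.5 in T2, with a peak in all 4 lists at 36 of 40. Cytosolic ribosomal protein genes had medians of 91.0 and 90.2 in T1 and 90.3 and 88.5 in T2, with 74 of 76 in all 4. The histone genes thus had median ranks near those of both sets.

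Genes that act on histones were also open throughout. Of 21 regulators of histone genes and of histone message processing, 21 had a peak in all 4 lists, and so did 17 of 17 histone chaperones. Npat had −log10 q of 296 and 250 in T1 and 315 and 225 in T2, and Slbp had 248 and 187 in T1 and 207 and 180 in T2. Of 10 histone genes outside the naming rule, mostly variants used outside S phase, 9 had a peak in all 4 lists. The tenth, H3f3b, which encodes the replacement histone H3.3, had weak gene-end peaks in T1 only (−log10 q of 7.59 and 7.20, percentiles 13.9 and 14.0).

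**Figure D3:**
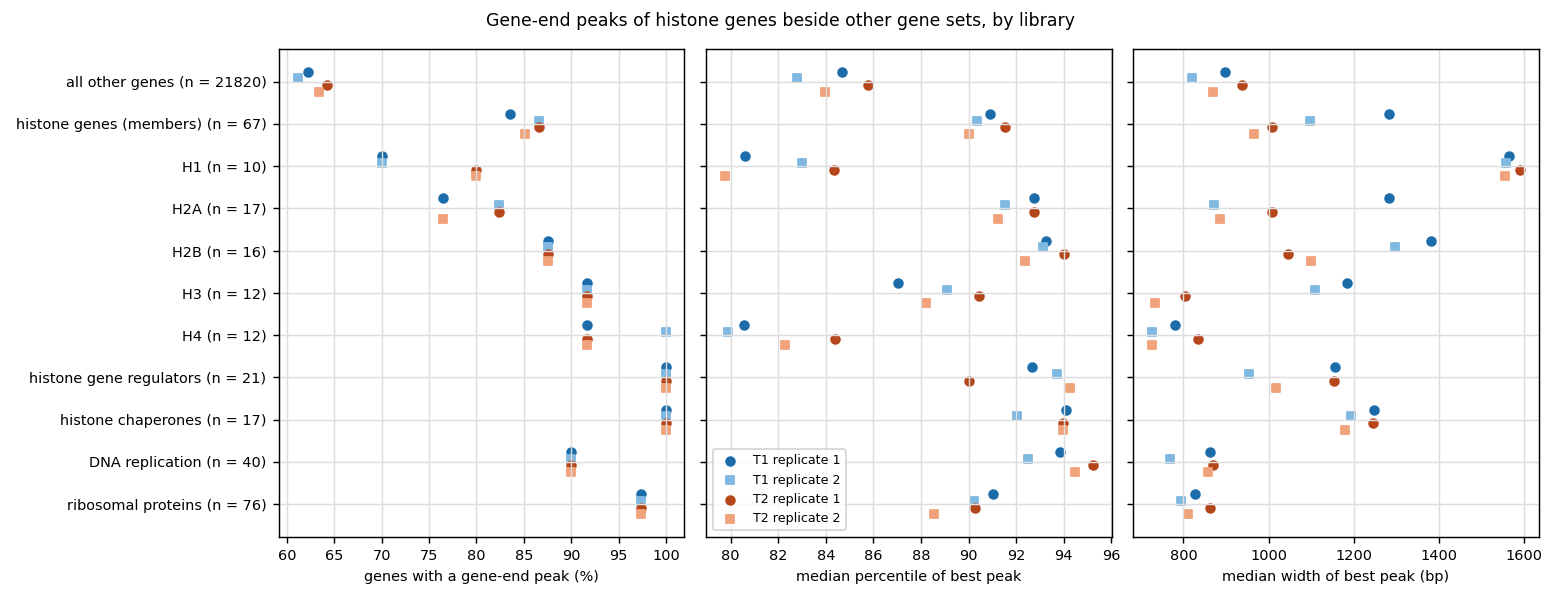
Share of genes with a gene-end peak (left, percent), median percentile of the strongest peak (middle) and its median width (right, bp) for the histone genes, their classes and other sets, one marker per library (n is the number of genes; medians are over genes with a peak in all 4 lists). The median width of the histone genes is 1282 and 1096.5 bp in T1 and 1007 and 965 bp in T2, while those of the ribosomal protein and DNA replication genes lie between 769.5 and 870.5 bp.

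Rank differed between the groups at few members. The percentile of the best peak was higher in both T2 lists than in both T1 lists at 9 of the 56 (16.1%), where 34.1% of all genes with a peak in all 4 lists did this. It was higher in both T1 lists at 6 (10.7%), where the share over all genes was 16.3%. With lists of equal length 6 members were higher in T2 and 15 higher in T1. The share over all genes was not computed at that setting, so these counts are not read as a result about the members. The median over members was 90.64 ± 0.372 in T1 and 90.79 ± 1.08 in T2 (SD, n = 2 per group), a difference of 0.146 points. That difference was −1.28 when each list was shortened to the length of the shortest, and 4.17 when peaks were ranked by the authors' fold over background, so its direction and size depend on how peaks are ranked.

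The 5 members with the largest T2 excess in percentile were H1f10, H1f0, H4c11, H4c4 and H2bc14. H1f10, a linker histone gene expressed outside S phase, stood at percentiles of 47.8 and 55.2 in T1 and 67.2 and 66.6 in T2. Its −log10 q was 21.7 and 23.8 in T1 and 40.8 and 36.0 in T2. The peak covered the start and nearly the whole gene in all 4 lists, but its summit lay 714 and 703 bp before the start in T1 and 949 and 901 bp after the start in T2, near the end of this short gene.

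H1f0, the replacement linker histone of differentiating cells, stood at 70.9 and 63.4 in T1 and 75.5 and 77.9 in T2. In T2 replicate 2 its strongest peak was the one past the gene's end, with a summit 2619 bp from the start, while in the other lists it was the one at the start (241, 252 and 248 bp after it). The H1f0 values therefore do not compare the same peak. Taken apart, the peak at the start stood at 70.9 and 63.4 in T1 and 75.5 and 73.7 in T2. The one past the end stood at 56.3 and 60.3 in T1 and 69.6 and 77.9 in T2. H4c11 stood at 78.8 and 79.9 in T1 and 89.0 and 87.3 in T2, with its summit 718 bp before the start in every list. H4c4 stood at 91.7 and 87.7 in T1 and 92.9 and 95.0 in T2. H2bc14 stood at 91.8 and 89.5 in T1 and 94.2 and 95.4 in T2. For these 5 genes the groups did not overlap, though the spread between replicates was up to 7.56 points, at H1f0.

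The members with a T1 excess were H2ac18, H4c14, H2ac10, H3c8, and H3c13 with H2bc18. H2ac18 stood at 97.6 and 95.2 in T1 and 94.6 and 91.3 in T2. H4c14 stood at 96.0 and 95.3 in T1 and 91.8 and 94.9 in T2. The peak shared by H2ac10 and H3c8 stood at 90.4 and 91.3 in T1 and 90.4 and 88.2 in T2, and that of H3c13 and H2bc18 at 93.8 and 93.8 in T1 and 93.1 and 91.8 in T2. The T2 replicates differed by 3.38 points at H2ac18, 3.08 at H4c14, 2.24 at H2ac10 and H3c8 and 1.30 at H2bc18. At each of these peaks the lower T1 value and the higher T2 value lay closer together than that. At H2ac10 and H3c8 those values were 90.44 and 90.43.

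Peak width separated the T1 and T2 lists at more members than rank did, mostly with wider peaks in T1. The median width of the best peak over the 56 members was 1282 and 1096.5 bp in T1 and 1007 and 965 bp in T2. The means of these medians were 1189 ± 131 bp and 986 ± 29.7 bp (SD, n = 2 per group). The T2 mean was thus 203 bp lower. Taken within each gene, the T2 minus T1 difference was smaller, with a median of −23 bp over the 56 members. That median was 40.5 bp over all genes with a peak in all 4 lists. Over all genes with a peak in all 4 lists the medians were 897 and 820 bp in T1 and 938 and 870 bp in T2. The best peak was wider in both T1 lists at 19 of 56 members (33.9%), where 7.84% of all genes did this, and wider in both T2 lists at 8 (14.3%), where the share over all genes was 32.1%.

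Those 19 genes lie at 10 regions, because neighbours share peaks. They were 7 of 11 H3, 6 of 14 H2B, 5 of 13 H2A, 1 of 11 H4 and 0 of 7 H1 genes. The class counts are not independent, since a shared peak counts in each class. The best peaks of H3c10 and H3c3 had summits 1367 to 1370 and 1064 to 1150 bp before those starts, by H2A or H2B genes. That of H3c13 had its summit 956 or 957 bp after the start, by H2bc18, and H3c7 shares its best peak with H2bc9. The 8 genes wider in T2 lie at 7 regions and were 4 H4, 3 H1 and 1 H2B gene. That H2B gene was H2bc6, whose best peak is the one at H1f4, with its summit 35339 to 36518 bp before the H2bc6 start used here. The H2bc6 promoter window had a peak in all 4 lists, whose width was not measured. Counted by region and with all peaks of a region summed, 11 of 42 were wider in both T1 lists (26.2%), where 7.92% of regions at any gene end did this, and 9 were wider in both T2 lists (21.4%), where 32.4% did. With each region counted once, the T2 median width was 102 bp below that of T1, against 203 bp by gene. Of the comparison sets, the ribosomal protein genes had 16 of 74 wider in T1 and 21 wider in T2, the DNA replication genes 1 and 7 of 36, and the chaperones 0 and 8 of 17.

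**Figure D4:**
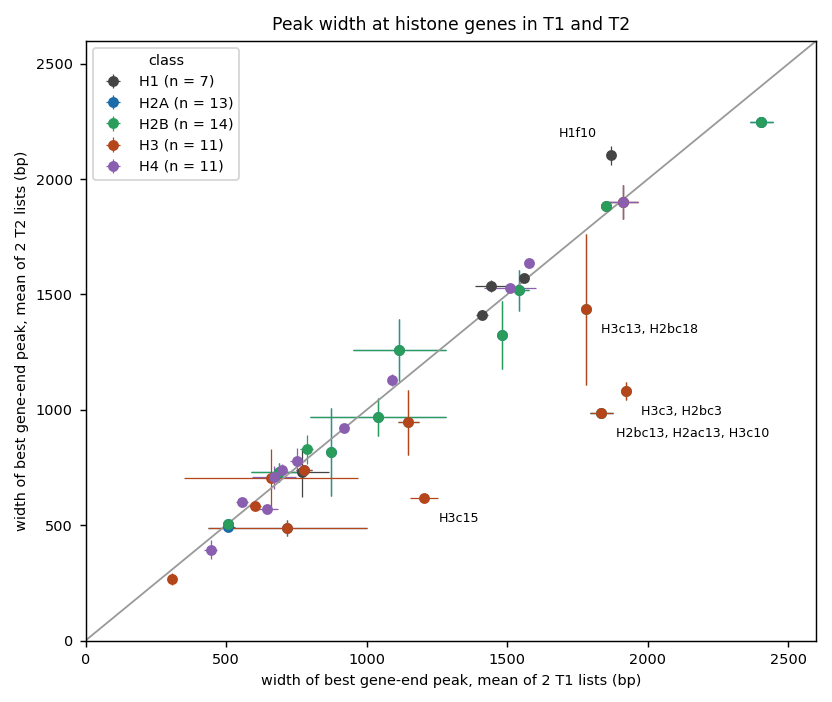
Width in bp of the best gene-end peak of each histone gene with a peak in all 4 lists, mean of the 2 T1 lists (x axis) against mean of the 2 T2 lists (y axis), coloured by class. Bars span the 2 replicates, the grey line marks equal width, and genes that share a peak lie on the same point. The labelled groups around H3c10, H3c3, H3c13 and H3c15 sit below the line and H1f10 sits above it.

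The width excess in T1 was large at a few regions and small at the rest. Among the 56 members, 8 had a best peak on average more than 300 bp wider in T1 and 0 had one more than 300 bp wider in T2. These 8 were H2bc13, H2ac13, H3c10, H3c3, H2bc3, H3c15, H3c13 and H2bc18, which form 4 regions. For the 19 genes wider in both T1 lists the mean difference ran from 37.5 to 849.5 bp in favour of T1, and for the 8 wider in both T2 lists from 32.5 to 232.5 bp in favour of T2. The smallest T1 excess was at the peak of H2ac10 and H3c8, 804 and 747 bp in T1 and 742 and 734 bp in T2, where the groups lay 5 bp apart.

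At 2 regions one broad T1 peak was listed as separate peaks in both T2 lists. More peaks in both T2 lists than in either T1 list occurred at 2 of the 42 regions (4.76%), where 0.373% of regions at any gene end did this, and the reverse occurred at 0, where the share was 0.249%. These shares were not matched for width, and by median the best peaks of members were wider than those of all genes. The first region spans H2bc13, H2ac13 and H3c10. It held 1 peak of 1876 and 1794 bp in T1, and peaks of 1006 and 562 bp in T2 replicate 1 and of 965 and 507 bp in T2 replicate 2. The gaps were 213 and 321 bp wide and lay between H2ac13 and H3c10. The summit between the starts of H2bc13 and H2ac13 was at about the same base in all 4 lists, 1367 to 1370 bp before the H3c10 start, and the separate T2 peak at H3c10 had its summit 49 and 43 bp before that start with −log10 q of 30.9 in both lists.

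The other region spans H3c3 and H2bc3, whose promoters are printed above. In T1 it held 1 peak of 1930 and 1918 bp. In T2 replicate 1 it held peaks of 1042 and 415 bp with a gap of 381 bp, and in T2 replicate 2 peaks of 1121 and 533 bp with a gap of 390 bp. The gap lay upstream of H3c3, between 169 and 551 bp before its start in T2 replicate 1 and between 287 and 678 bp in T2 replicate 2. The peaks on either side were in both groups strong, with −log10 q of 150 and 127 for the T1 peak, 164 and 116 for the larger T2 peak by H2bc3 and 46.4 and 41.8 for the T2 peak at H3c3. A peak overlapped both promoters in every library, although in T2 replicate 1 the far end of the printed H3c3 bases lay in the gap. The lists differed in whether the 2 sites formed 1 peak.

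H3c15 and the H3c13 and H2bc18 region were also narrower in T2, with less agreement between libraries. The H3c15 peak, which began inside the gene and had its summit past the gene's end, was 1255 and 1156 bp wide in T1. In T2 replicate 1 it was 628 bp with a separate weak peak of 212 bp (−log10 q of 3.39), and in T2 replicate 2 it was 607 bp alone. At H3c13 and H2bc18 the peak was 1772 and 1791 bp in T1 and 1762 bp in T2 replicate 1, and only T2 replicate 2 had separate peaks of 1109 and 390 bp. Without T2 replicate 2, the T1 peaks of this last region were 10 and 29 bp wider than the T2 peak, while the T1 replicates differed by 19 bp.

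**Figure D5:**
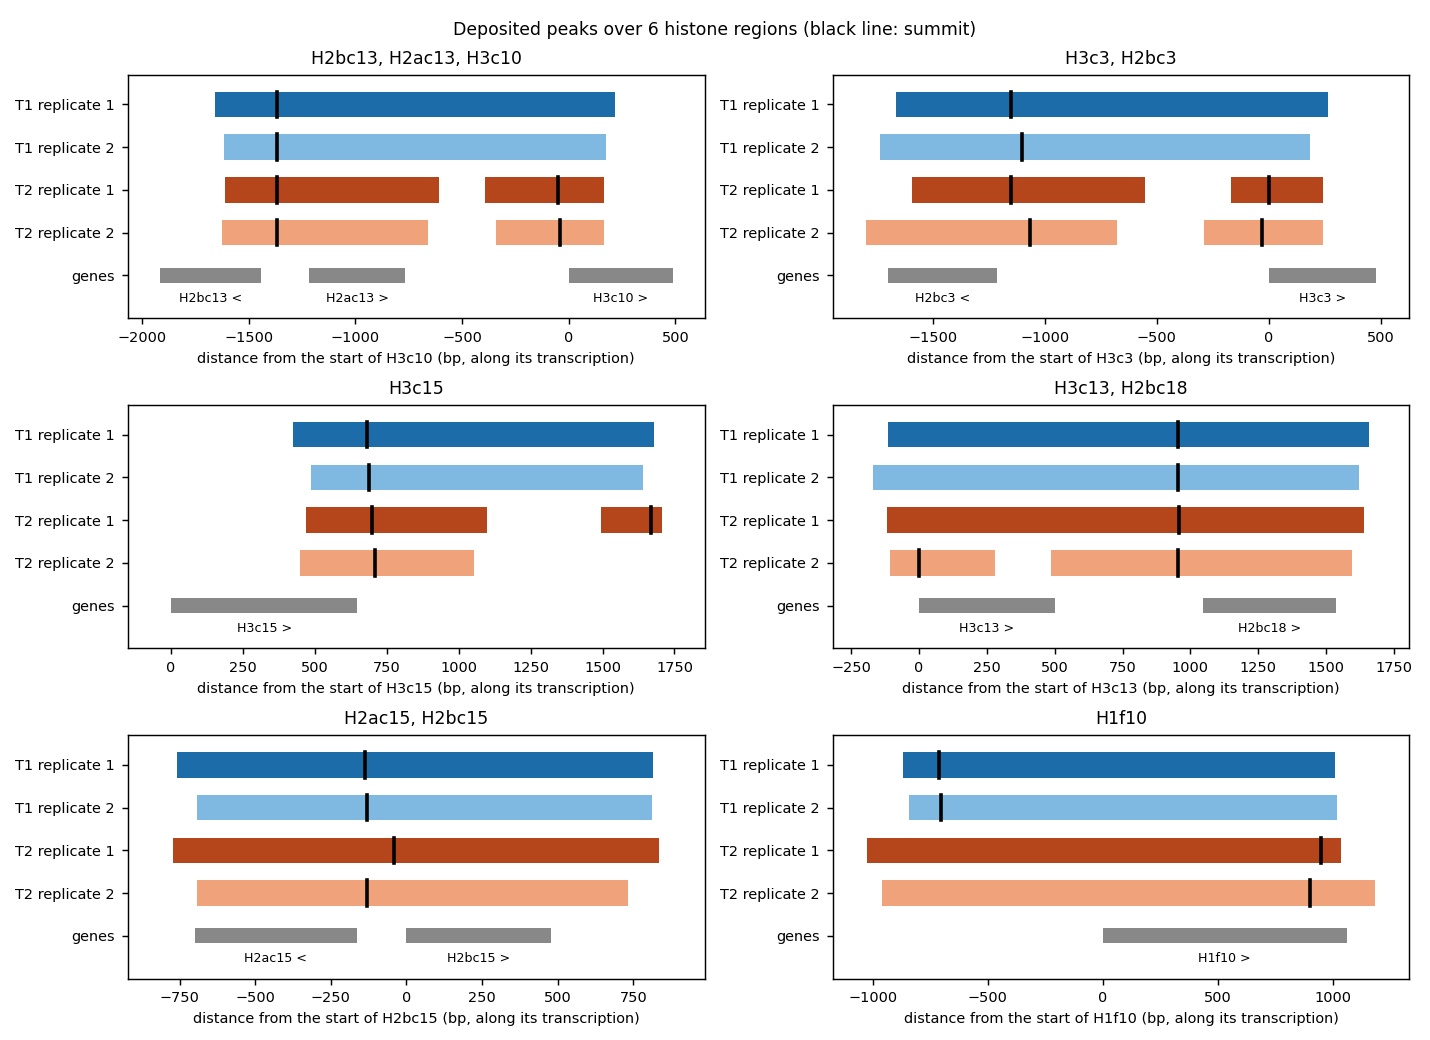
Extent of each deposited peak (coloured bars, black line at the summit) in the 4 lists over 6 histone regions, as distance in bp from the start of the gene named on each x axis, with gene bodies in grey and their direction as an arrowhead. The regions of H3c10 and of H3c3 have 1 peak in both T1 lists and separate peaks in both T2 lists, H2ac15 with H2bc15 has 1 peak in every list, and the H1f10 summit lies before the start in T1 and near the gene's end in T2.

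The widest member peak covered H2ac21, H2ac20 and H2bc21, at 2363 and 2444 bp in T1 and 2230 and 2267 bp in T2. H1f10 followed with 1880 and 1861 bp in T1 and 2063 and 2143 bp in T2, and then H1f1, which shares its peak with H3c1 and H4c1, with 1860 and 1965 bp in T1 and 1976 and 1829 bp in T2. The narrowest was H3c4, at 321 and 297 bp in T1 and 292 and 241 bp in T2. H4c18 had 468 and 422 bp in T1 and 436 and 353 bp in T2. H2ac18 had 530 and 487 bp in T1 and 508 and 475 bp in T2, and H2ac7 with H2bc7 had 513 and 502 bp in T1 and 518 and 495 bp in T2. Narrow peaks were not always weak, since H2ac18 ranked above percentile 90 in every list.

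Histone genes are short, and their peaks often covered the gene itself. Over the 50 members of up to 1000 bp with a peak in all 4 lists, the median share of the gene body under a peak was 100% and 98.3% in T1 and 98.8% and 79.3% in T2, and 18 of the 50 were fully covered in every list. For the 48 other protein-coding genes of that length with a peak in all 4 lists, the medians were 58.1% and 55.4% in T1 and 56.7% and 58.2% in T2. Cover was higher in both T1 lists at 5 of the 50 members and at 3 of the 48 other genes. It was higher in both T2 lists at 3 of the 50 members and at 9 of the 48 other genes. Over all 98 such genes, members included, the shares were 8.16% and 12.2%. This measure was chosen after values had been seen. Relative to the start, the median summit lay 45 and 55 bp before it in T1 and 42 and 20 bp before it in T2, over 51 members with a promoter entry and a peak in all 4 lists. These medians hide a wide spread, since some best peaks lie by a neighbouring gene. The summit was within 300 bp before the start in all 4 lists at 20 of the 51.

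A further 7 members had no gene-end peak in any list: H1f8, H2ac1, H2bc1, H2ac23, H2bc23, H2ac24 and H3c14. H1f8 encodes the oocyte linker histone, and H2ac1 and H2bc1 are the testis H2A and H2B genes. The nearest peak to H2bc1 was 19350 and 19379 bp away in T1 and 19218 and 7441 bp away in T2, although its promoter printed above holds 4 CCAAT boxes, a TATA box and an octamer motif. Motif content and peaks thus did not go together at this gene. The remaining 4 members had a peak in some lists. H1f7, a spermatid linker histone gene, had a weak one in T2 replicate 1 only (−log10 q of 5.73), and H4c12 had one in T1 replicate 2 only (4.33). H2ac19 had one in T1 replicate 2 (16.9) and T2 replicate 1 (20.0).

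The limit of 1 kb decided the case of H1f6, the testis linker histone gene. It counted as present in T2 replicate 2 only, where the peak of its neighbour H4c3 lay 993 bp away, while in the other lists the same peak lay 1021, 1033 and 1043 bp away. Just outside the limit were also H2ac19 in the 2 lists without a call (1076 and 1100 bp), H2ac23 (1088 to 1215 bp) and H3c14 (1190 to 1207 bp). With windows of 2000 bp, 63 of the 67 members had a peak in all 4 lists. A gene without a listed peak is not shown to be closed, since a peak list keeps only what passed the authors' threshold.

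Several of the genes without a promoter peak are near-identical copies. In 9 of the 62 promoters more than 50% of the 30-base words also occurred elsewhere in the promoter table. These were H2ac18 and H2ac19 (70.1% each), H2ac23 (91.9%), H2bc23 (100%), H2ac24 (75.3%), H3c14 and H3c15 (83.4% each), and H4c17 and H4c18 (94.5% each). A peak lay over the promoter window in all 4 lists at 1 of these 9 and in none at 7. Of the other 53, 45 had one in all 4 lists and 5 in none. Reads from identical copies cannot be placed on 1 of them with certainty, and how the authors treated such reads is not given in the sources used here. The part of this in the missing peaks was not tested.

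Where copied genes did have peaks, their summits lay outside the shared run found in the promoter windows. H2ac18 and H2ac19 share an exact run of 219 bases that begins 209 bases before the H2ac18 start and 169 before the H2ac19 start, and the capitals in the pair printed above are its bases up to each start. The H2ac18 summits lay 229 and 246 bp before its start in T1 and 251 and 245 bp before it in T2, and the peaks ran on over most of the shared bases before the start, ending 2 to 19 bp before it. The 2 listed H2ac19 summits lay 186 and 193 bp before its start. All of these summits are upstream of the shared run. For H4c17 and H4c18, whose promoters share 285 bases, every peak began 260 bp or more after the start, and for H3c15, which shares 231 bases with H3c14, 424 bp or more after it. Values at these genes are therefore uncertain, including the T1 excess in rank at H2ac18 and in width at H3c15 and H4c17.

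The genes fell into 5 runs along the genome, with neighbours joined within 100 kb, and 4 linker histone genes (H1f0, H1f7, H1f8 and H1f10) lay elsewhere. The longest run, 29 genes from H4c8 to H1f1 at chr13:23531044-23764412, had a peak in all 4 lists at 28 and held 28 and 31 peaks in T1 and 34 and 32 in T2. The run of 17 genes from H2bc13 to H2ac24 at chr13:21715711-21833475 had 13 in all 4 and held 9 and 10 peaks in T1 and 10 and 10 in T2. The 5 genes from H2ac12 to H2bc11 at chr13:22035122-22043658 were all covered, with 3 peaks in every list. The 10 genes at chr3:96219885-96270192 had 8 in all 4, with 7 and 8 peaks in T1 and 9 and 8 in T2. H2bc1 and H2ac1 at chr13:23933725-23934913 formed the run without a peak. All of the genes wider in T1 lay in the 3 larger runs, which also hold most members with a peak in all 4 lists. Of the members with such a peak they were 4 of 13 in the run of 17, 9 of 28 in that of 29 and 6 of 8 on chromosome 3. Neighbours share peaks, so these counts are not of independent genes.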

How the data were processed

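Peaks were called by the authors per library, as 1 prefix of peak names per file shows. Bowtie2, SAMtools, MACS2 and the build mm10 are named in the submitters' processing notes. For versions, settings, the treatment of reads with several matches and any shift for transposase insertion, the sources used here state nothing. The deposited −log10 q and −log10 p values and the deposited fold value (a ratio over local background) belong to each peak. The deposited score is a whole number tied to the −log10 q, and the deposited summit offset is counted from the peak start. These are the authors' values and were used only to describe, rank and filter peaks within a list.

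Only peaks on the autosomes, X and Y entered. A gene was present where a peak overlapped 1000 bp either side of a gene end, with gene positions from RefSeq (GRCm38.p6, which mm10 denotes). Its best peak was the one of highest −log10 q. An overlap of 1 bp or more joined peaks of different lists into a region. Gene strand and starts came from RefSeq promoter entries of 300 bases (250 before and 50 after the start), where a gene had one. Counts of genes whose T1 and T2 values did not overlap stand beside the same share over all genes, and no test was made. Precision is limited by 2 libraries per group, and the spread between them may be technical.

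Named are, per class, the 3 members of highest mean −log10 q, those with a group-only gene or region, the 5 with the largest percentile difference in each direction among those that did not overlap, and the 5 widest and 5 narrowest. Any other gene was named with its values already known. The members and lists were chosen with earlier results of these data known. Alternatives were peaks of −log10 q of at least 5 or 10, lists of equal length and windows of 500 and 2000 bp. Gene bodies with 1000 bp either side, the summit in the window, ranking by fold and the summed width of gene-end peaks were also used. The rest were members inside the clusters only, leaving out each library and 2 added later. The procedure was tested on simulated peak lists. Python 3.11.15 was used with numpy 2.4.6, pandas 2.3.3 and matplotlib 3.10.9.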

Additional observations from a re-analysis of the deposited data

How the results depend on the processing

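Over 7 summary results and their alternatives, 79 of 91 values stayed within the replicate spread, or within 1.5 times for counts, and 12 moved beyond it. With lists of equal length the T2 minus T1 difference in median percentile was −1.28, and ranked by fold it was 4.17, against 0.146. The difference in median width was −82.5 bp with windows of 2000 bp, −108 bp with the summit required in the window and −102 bp with each region counted once (added after seeing the data), against −203 bp. Requiring the summit in the window gave a gene count difference of 2.50 and 3 T2-only genes (H3c10, H3c3 and H4c1), because the summit of the broad T1 peak lies outside their windows. Without each library in turn, the gene count difference ran from −0.500 to 1.5, T1-only and T2-only genes from 0 to 1 each, T1-only regions from 0 to 1 and T2-only regions from 1 to 3, the 3 without T2 replicate 2. The percentile difference ran from −0.617 to 0.908 and the width difference from −296 to −110 bp. Members wider in both T1 lists numbered 17 to 19 in the settings run, except 10 of 37 with each region counted once. Members higher in percentile in both T1 lists numbered 15 with lists of equal length, where those higher in both T2 lists numbered 6, and the latter numbered 14 with −log10 q of at least 10. For these alternative settings the shares over all genes were not computed. No paired analysis was possible because the results come from no test, and the labels tie the replicate numbers to no shared animal, batch or day. Depth is unknown, so a missing peak may reflect few reads.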

Other observations

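A further 4 histone genes carry older symbols of the Hist1h, Hist3h or Hist4h kind and fall outside the naming rule. H2aw, an H2A gene, had −log10 q of 129 and 83.2 in T1 and 115 and 93.1 in T2. Its peak was 1749 and 1681 bp wide in T1 and 1674 bp in T2 replicate 1, and the best of its 2 peaks in T2 replicate 2 was 1005 bp wide. H2bu2, an H2B gene, had 41.1 and 23.5 in T1 and 38.5 and 35.5 in T2, and H4f16, an H4 gene, had 83.2 and 76.1 in T1 and 95.2 and 71.7 in T2. H4bc24, which shares promoter bases with H2bc23, had no gene-end peak in any list. None of the 3 genes with peaks separated the groups in −log10 q. With these 4 genes added (an alternative chosen after seeing the data), the difference in median width was −196 bp and that in median percentile 0.113.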
